A study of Mus musculus with 8 samples.

Results

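The genes described here are 10 components of the mammalian circadian clock, namely Arntl (also called Bmal1), Clock, Per1, Per2, Per3, Cry1, Cry2, Nr1d1, Nr1d2 and Dbp. They were chosen by name, are 10 of the 36047 genes counted, and all 10 were among the 17997 genes that were tested. RNA was measured in muscle stem cells (MuSCs), the Pax7-positive satellite cells of skeletal muscle, from 3 mice on a vitamin A-free (VA-free) diet and 2 control (CTRL) mice on normal chow. All 5 were Pax7-CreERT2 Rosa26 nTnG males aged 5 to 6 months, a reporter line in which tamoxifen turns the nuclei of cells with an active Pax7 promoter, and of their descendants, from red to green. The VA-free mice had received the diet for 8 weeks, and green cells were sorted from quadriceps and gastrocnemius into Trizol. The RNA of a mouse was divided at the spin column into technical libraries A and B, and 8 libraries were available, from VA-free mice 1 (B), 2 (A) and 3 (A and B) and CTRL mice 1 and 2 (A and B each). A library is named below by its mouse and letter. Libraries of 1 mouse share an animal and were added together before any test.

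In the clock, ARNTL and CLOCK form a dimer that binds E-boxes in DNA and switches on the Per, Cry, Nr1d and Dbp genes. PER and CRY proteins return to the nucleus and inhibit the dimer, NR1D1 and NR1D2 (REV-ERB alpha and beta) repress Arntl and Clock through ROR elements, and DBP activates genes through D-boxes. The transcripts rise and fall over the day in most tissues, skeletal muscle included, with Dbp, the Nr1d genes and the Per genes peaking at a different time from Arntl. The hour at which each mouse was killed is not given in the sources used here, so hour of harvest and diet cannot be told apart in any of the differences below. In bulk RNA, fewer cells of a type and less RNA per cell cannot be told apart either.

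Promoter sequence was examined because 6 of the 10 genes were higher in the cells sorted from VA-free mice and several share known response elements. RefSeq windows of 250 bases before a transcription start on GRCm38.p6 were found for 9 of the 10 genes in 13 windows, and Per2 had no entry. Both strands were searched for the E-box CACGTG, the E-prime box CACGTT, the D-box TTATGTAA or TTATGCAA, the ROR element TAGGTCA and the cAMP response element TGACGTCA. The 5 windows with a match are printed 5′ to 3′ on the strand of the gene, with the match in capitals, and an E-prime box on the other strand reads AACGTG. They lay at chr11:69098699-69098948 (plus strand) for Per1, chr4:151044666-151044915 (minus strand) for Per3, chr10:85185055-85185304 (minus strand) for Cry1, chr2:92434070-92434319 (minus strand) for Cry2 and chr11:98775378-98775627 (minus strand) for Nr1d1.
Per1: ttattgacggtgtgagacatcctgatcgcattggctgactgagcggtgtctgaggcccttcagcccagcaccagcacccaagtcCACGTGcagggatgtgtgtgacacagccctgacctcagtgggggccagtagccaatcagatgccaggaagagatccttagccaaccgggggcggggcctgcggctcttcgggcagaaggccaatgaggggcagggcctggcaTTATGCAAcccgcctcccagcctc
Per3: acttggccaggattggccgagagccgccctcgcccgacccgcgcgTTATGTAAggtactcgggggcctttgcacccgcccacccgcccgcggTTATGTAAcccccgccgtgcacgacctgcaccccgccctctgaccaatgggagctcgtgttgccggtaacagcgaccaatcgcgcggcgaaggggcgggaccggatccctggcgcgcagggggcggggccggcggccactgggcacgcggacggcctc
Cry1: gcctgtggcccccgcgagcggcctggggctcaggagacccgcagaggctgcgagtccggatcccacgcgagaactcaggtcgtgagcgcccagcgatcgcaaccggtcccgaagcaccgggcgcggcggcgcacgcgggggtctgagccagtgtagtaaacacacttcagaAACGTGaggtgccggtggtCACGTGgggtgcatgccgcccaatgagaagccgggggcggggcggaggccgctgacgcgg
Cry2: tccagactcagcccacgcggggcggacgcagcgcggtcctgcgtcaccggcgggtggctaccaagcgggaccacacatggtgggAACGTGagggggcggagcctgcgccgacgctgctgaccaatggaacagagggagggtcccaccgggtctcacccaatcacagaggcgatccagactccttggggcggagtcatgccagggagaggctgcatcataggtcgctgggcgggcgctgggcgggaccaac
Nr1d1: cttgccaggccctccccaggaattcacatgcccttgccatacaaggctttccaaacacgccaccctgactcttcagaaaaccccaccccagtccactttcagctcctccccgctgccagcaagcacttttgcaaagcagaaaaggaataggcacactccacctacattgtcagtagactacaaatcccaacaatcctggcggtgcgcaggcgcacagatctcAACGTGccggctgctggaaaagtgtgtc

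Counted from the base before the start as -1, the Per1 window held an E-box beginning at -166 and a D-box at -24. The Per3 window held a pair of D-boxes at -205 and -158. In the Cry1 window an E-prime box at -79 was followed by an E-box at -60, and the Cry2 and Nr1d1 windows each held an E-prime box, at -166 and -28. No ROR element or cAMP response element of these letters was found in the 13 windows, and none of the 5 motifs in the windows of Arntl, Clock, Nr1d2 and Dbp. Over all 32851 windows of the same length, 6.02% held the E-box, 3.85% the E-prime box, 1.50% the D-box, 2.23% the ROR element and 1.55% the cAMP response element. Matches are descriptions of letters and were not linked to binding here.

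The libraries held between 44831232 and 88650428 estimated counts, and 7459 of the 17997 genes had an adjusted p-value under 0.05 by the quasi-likelihood test of edgeR after Benjamini-Hochberg adjustment. Of all genes tested, 18.9% were called higher and 22.5% lower in VA-free mice, and in 19.9% every VA-free library lay above every CTRL library. CTRL libraries 2A and 2B, from 1 mouse, stood apart from each other in several clock genes, as given below. Markers of other cells moved with the diet. All 9 MuSC markers were higher in VA-free libraries (summed level 4880 to 5542 CPM against 1442 to 2939 CPM), and all 8 endothelial markers were lower (217 to 280 CPM against 1087 to 2310 CPM). Pax7 itself was at 132 ± 28.3 CPM (SD, n = 3) against 78.1 ± 2.57 CPM (SD, n = 2), whereas the endothelial gene Pecam1 was at 38.1 ± 6.81 against 465 ± 231 CPM.

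Of the 10 clock genes, Clock, Per2, Cry1, Cry2, Nr1d1 and Nr1d2 were higher in cells sorted from VA-free than from CTRL mice. None was lower, and Arntl, Per1, Per3 and Dbp were not called. These are levels of whole sorted preparations, whose marker RNA of other cell types differed as given above. The called differences ranged from 1.78-fold for Clock to 3.75-fold for Per2. The count of 6 of 10 called higher stands beside the 18.9% of all genes called higher. In these 6 genes every VA-free library also lay above every CTRL library, against 19.9% of all genes, and in the other 4 the libraries of the diets overlapped. The median log2 fold change of the 10 genes was 0.84, against 0.003 for all genes tested. When a smooth trend of each mouse's values with gene length was removed, 2 of the 10 genes, Per2 and Nr1d2, were called higher, where 12% of all genes were.

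**Figure D1:**
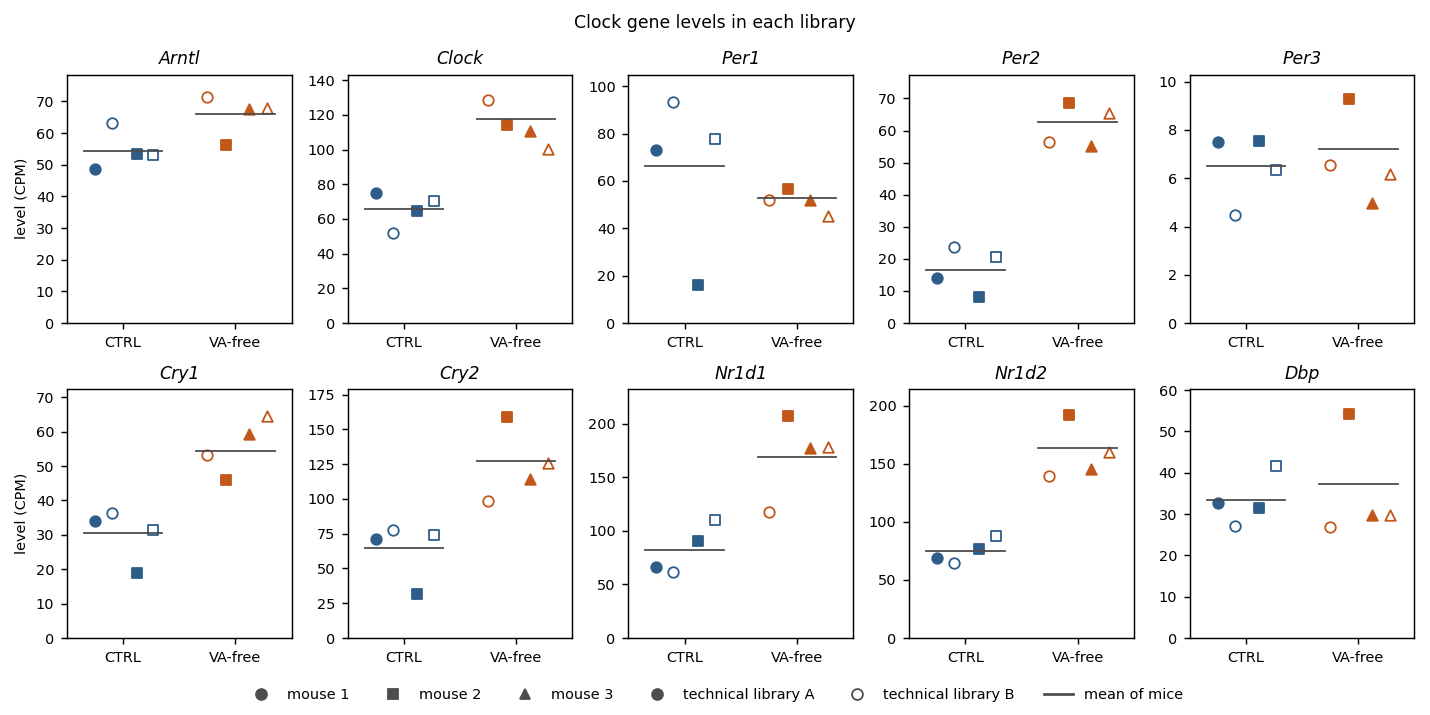
Level of each of the 10 clock genes in CPM (linear axis from 0) in the 4 CTRL and 4 VA-free libraries, with the symbol shape giving the mouse, filled symbols technical library A, open symbols technical library B and lines the mean of the mice. The VA-free libraries of Per2 sit between 55.1 and 68.7 CPM, all above the CTRL libraries at 8.03 to 23.8 CPM, whereas CTRL 2A stands low for Per1 at 16.1 CPM.

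Levels were also compared on a scale per transcript length (TPM, with libraries of a mouse averaged). Nr1d1 and Nr1d2 were the most abundant clock transcripts in cells sorted from VA-free mice, at 116 ± 29.7 and 111 ± 20.1 TPM (SD, n = 3). They were followed by Cry2 at 63.4 ± 14.5, Dbp at 51.8 ± 21.7, Arntl at 43.4 ± 7.25, Cry1 at 38.2 ± 7.45, Per1 at 36.6 ± 6.95, Clock at 34.7 ± 4.96, Per2 at 24.2 ± 0.874 and Per3 at 2.88 ± 1.05 TPM. Among neighbours in this order, the SD ranges separated between Nr1d2 and Cry2, between Clock and Per2 and between Per2 and Per3, and overlapped elsewhere. In cells sorted from CTRL mice, Nr1d1 led at 41.9 ± 13.3 TPM (SD, n = 2). Dbp at 34.9 ± 5.40, Nr1d2 at 34.5 ± 4.65 and Per1 at 32.8 ± 11.3 TPM were within 1 SD of Nr1d1. Arntl at 27.8 ± 1.69, Cry2 at 24.1 ± 5.30, Cry1 at 15.1 ± 3.57, Clock at 14.9 ± 0.181, Per2 at 4.40 ± 1.38 and Per3 at 2.53 ± 0.166 TPM completed the order. Per3 was thus the least abundant clock gene on both diets.

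Of the activators of the loop, Clock was called higher and Arntl was not, and the difference between them was not tested. Clock (chr5:76209868-76304792, minus strand), which encodes the partner of ARNTL in the activating dimer, was at 129, 114, 110 and 100.04 CPM in VA-free libraries 1B, 2A, 3A and 3B. In CTRL libraries 1A, 1B, 2A and 2B it was at 74.99, 51.8, 64.5 and 70.5 CPM. All 4 VA-free libraries were above all 4 CTRL libraries. Over mice the level was 118 ± 12.9 (SD, n = 3) against 65.9 ± 0.721 CPM (SD, n = 2), which is a log2 fold change of 0.83 (SE 0.13, adjusted p = 0.0026, from edgeR, as for all adjusted p-values of single genes that follow). With the length trend removed, Clock differed by 0.20 on the log2 scale (adjusted p = 0.2). Clock has the longest transcripts of the 10 genes, 6133 bases weighted by TPM.

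Arntl (chr7:113207465-113314126, plus strand), which encodes the other subunit of the dimer, was at 71.6, 56.2, 67.5 and 67.9 CPM in the VA-free libraries and at 48.8, 63.1, 53.3 and 53.1 CPM in the CTRL libraries. The diets overlapped, since CTRL 1B lay above VA-free 2A. The mean was 66.0 ± 8.74 (SD, n = 3) against 54.4 ± 4.20 CPM (SD, n = 2), and the log2 fold change of 0.28 (SE 0.15, 95% interval -0.07 to 0.63) did not pass the test (adjusted p = 0.172). On the log2(TPM + 1) scale, tested with limma, the difference was 0.61 (adjusted p = 0.019), on which the median of all genes was 0.192. With the length trend removed it was -0.01.

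Per2 (chr1:91415982-91459324, minus strand), a core repressor whose protein acts in complex with the cryptochromes, had the largest difference of the 10 clock genes. It was at 56.5, 68.7, 55.1 and 65.4 CPM in the VA-free libraries and at 14.1, 23.8, 8.03 and 20.5 CPM in the CTRL libraries. The lowest VA-free library was above the highest CTRL library, and within each CTRL mouse library B was above library A. Mean levels of 62.6 ± 5.64 (SD, n = 3) against 16.7 ± 3.63 CPM (SD, n = 2) differed 3.75-fold (log2 fold change 1.91, SE 0.18, adjusted p = 0.000446). Among all genes tested, 433 had a larger positive log2 fold change. In TPM the levels were 24.2 ± 0.874 and 4.40 ± 1.38. Per2 passed the test in all 25 alternative analyses, with log2 fold changes from 1.31 with the length trend removed to 2.46. It was the only one of the 10 genes above the median log2 fold change of the MuSC markers, 1.31.

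Per1 (chr11:69095217-69109960, plus strand), a paralogous repressor that also responds rapidly to glucocorticoids and cAMP, was not called. It was at 51.8, 56.7, 52.1 and 45.3 CPM in the VA-free libraries and at 72.9, 93.3, 16.1 and 77.8 CPM in the CTRL libraries. The VA-free libraries thus lay below 3 of the CTRL libraries and above CTRL 2A, and libraries 2B and 2A of that mouse differed 4.83-fold. The log2 fold change was -0.32 (SE 0.24, 95% interval -0.88 to 0.24, adjusted p = 0.324). It became -0.62 (adjusted p = 0.00497) without CTRL library 2A and -0.69 (adjusted p = 0.00716) without CTRL mouse 2, and turned to 0.05 (adjusted p = 0.965) without CTRL 2B and 0.17 (adjusted p = 0.341) without CTRL mouse 1.

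Per3 (chr4:151003652-151044665, minus strand), the third Period paralog, was low throughout, at 6.56, 9.29, 4.98 and 6.16 CPM in the VA-free libraries and 7.52, 4.49, 7.55 and 6.35 CPM in the CTRL libraries. The diets overlapped over most of their range. The log2 fold change was 0.15 (SE 0.26, 95% interval -0.47 to 0.77, adjusted p = 0.687) and rested on 198 counts in CTRL 1B, the lowest of the 10 genes in any library.

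The cryptochromes, which bind PER proteins and inhibit the dimer, were both higher on the VA-free diet. Cry1 (chr10:85131700-85185064, minus strand) was at 53.2, 46.1, 59.2 and 64.6 CPM in the VA-free libraries and at 34.1, 36.3, 19.0 and 31.4 CPM in the CTRL libraries, with no overlap. Mean levels of 54.5 ± 8.34 (SD, n = 3) against 30.5 ± 8.26 CPM (SD, n = 2) gave a log2 difference of 0.84 (SE 0.21, adjusted p = 0.0179). Cry2 (chr2:92403646-92434043, minus strand) was at 98.2, 159, 114 and 126 CPM against 70.9, 77.4, 31.6 and 74.1 CPM. Here too the diets did not overlap, although CTRL 2A was far below the other CTRL libraries and 2B of that mouse was 2.34-fold higher. Mean levels of 127 ± 29.8 (SD, n = 3) against 64.4 ± 17.1 CPM (SD, n = 2) gave a log2 difference of 0.98 (SE 0.24, adjusted p = 0.0169).

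Both cryptochrome calls depended on single libraries. Without CTRL library 2B the log2 fold changes were larger, 0.96 for Cry1 and 1.22 for Cry2, but the adjusted p-values were 0.0811 and 0.0881. Without CTRL mouse 2 they were 0.58 (adjusted p = 0.0582) and 0.73 (adjusted p = 0.076). Cry1 also missed the threshold without VA-free mouse 1 (adjusted p = 0.0549) or VA-free mouse 3 (adjusted p = 0.0584). With the length trend removed the values were 0.57 for Cry1 (adjusted p = 0.0725) and 0.50 for Cry2 (adjusted p = 0.173).

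The nuclear receptors of the second loop, which repress Arntl, were both higher on the VA-free diet. Nr1d1 (chr11:98767932-98775333, minus strand) was at 117, 207, 177 and 178 CPM in the VA-free libraries and at 65.9, 61.8, 90.1 and 110 CPM in the CTRL libraries. The lowest VA-free library, 1B, was close to the highest CTRL library, 2B, but the diets did not overlap. Mean levels of 169 ± 44.8 (SD, n = 3) against 81.8 ± 22.1 CPM (SD, n = 2) gave a log2 difference of 1.05 (SE 0.27, adjusted p = 0.0193). Without VA-free mouse 3 it was 1.00 (adjusted p = 0.0513), without CTRL mouse 1 it was 0.79 (adjusted p = 0.0876), and removal of the length trend also gave 0.79 (adjusted p = 0.0715). Nr1d1 lies tail to tail with Thra on this chromosome, and whether the counting used strand is not given in the sources used here.

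Nr1d2 (chr14:18204054-18239127, minus strand) was at 140, 192, 146 and 160 CPM in the VA-free libraries and at 69.2, 64.7, 76.4 and 88.3 CPM in the CTRL libraries. The diets were far apart and the technical libraries close together. Mean levels of 163 ± 25.8 (SD, n = 3) against 74.7 ± 7.39 CPM (SD, n = 2) gave a log2 difference of 1.13 (SE 0.16, adjusted p = 0.00195). Nr1d2, like Per2, passed the test in all 25 alternative analyses, with log2 fold changes from 0.84 to 1.68.

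Dbp (chr7:45705088-45710203, plus strand), the D-box activator and a strongly rhythmic output of the clock, was at 26.9, 54.3, 29.7 and 29.9 CPM in the VA-free libraries and 32.7, 27.1, 31.3 and 41.5 CPM in the CTRL libraries. VA-free 2A was high, and the other 3 VA-free libraries lay within or just below the CTRL range. Mean levels of 37.4 ± 14.8 (SD, n = 3) against 33.3 ± 3.08 CPM (SD, n = 2) gave a log2 difference of 0.16 (SE 0.30, 95% interval -0.54 to 0.87, adjusted p = 0.700), and it was -0.21 (adjusted p = 0.39) when VA-free mouse 2 was left out. Dbp thus did not share the difference of Per2, Cry2 and the Nr1d genes in these tests, though whether it differed from them was not tested.

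**Figure D2:**
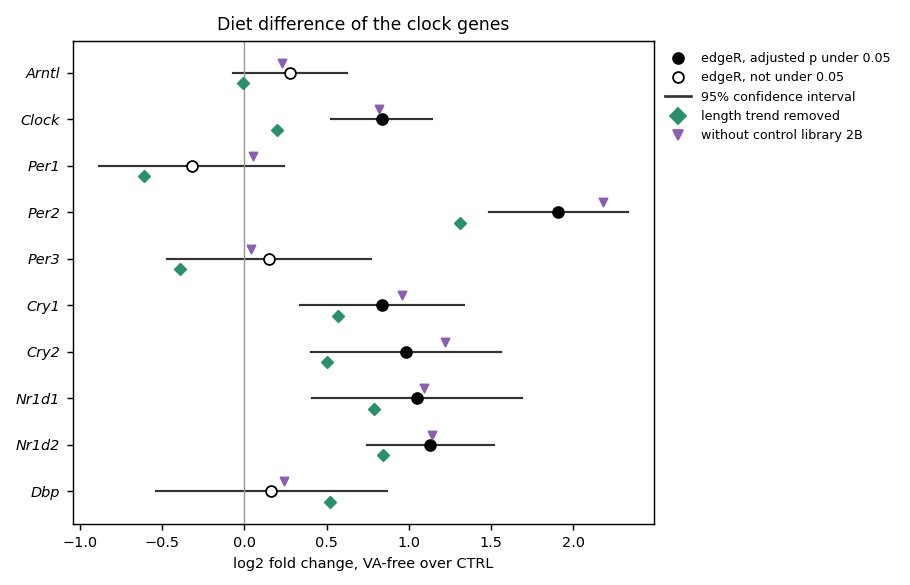
Log2 fold change of the 10 clock genes, VA-free over CTRL, with the 95% confidence interval of edgeR's test (circles, filled where the adjusted p-value was under 0.05), the value with the length trend removed (diamonds) and the value without CTRL library 2B (triangles). Per2 lies farthest right at 1.91 and remains at 1.31 with the length trend removed, whereas Clock moves from 0.83 to 0.20 and Per1 from -0.32 to 0.05 without CTRL 2B.

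The VA-free mice also differed among themselves in the clock. VA-free mouse 2 had the highest level of the 3 mice in 7 of the 10 genes (Dbp, Per3, Cry2, Nr1d1, Nr1d2, Per2 and Per1) and the lowest in Arntl and Cry1, where over all genes tested it was highest in 33.0% and lowest in 34.3%. Relative to the mean of mice 1 and 3, mouse 2 was 1.89-fold in Dbp, 1.50-fold in Per3, 1.43-fold in Cry2, 1.39-fold in Nr1d1 and 1.29-fold in Nr1d2. Per2 and Per1 differed less, at 1.16-fold and 1.11-fold, and Clock was at 0.962-fold. Arntl and Cry1 were lower in mouse 2, at 0.794-fold and 0.788-fold. Of the other clock genes examined, the repressor Bhlhe40 was at 1.56-fold, the D-box activators Hlf and Tef at 1.37-fold and 1.33-fold, Npas2 at 0.854-fold and Rora at 0.836-fold. Over all 24 further clock genes described below, however, mouse 2 was highest in 10 and mouse 3 in 12, so mouse 2 was not the most frequent highest mouse there. Mouse 2 had 1 library, so technical and biological differences of this mouse cannot be told apart, and with single animals there is no test.

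**Figure D3:**
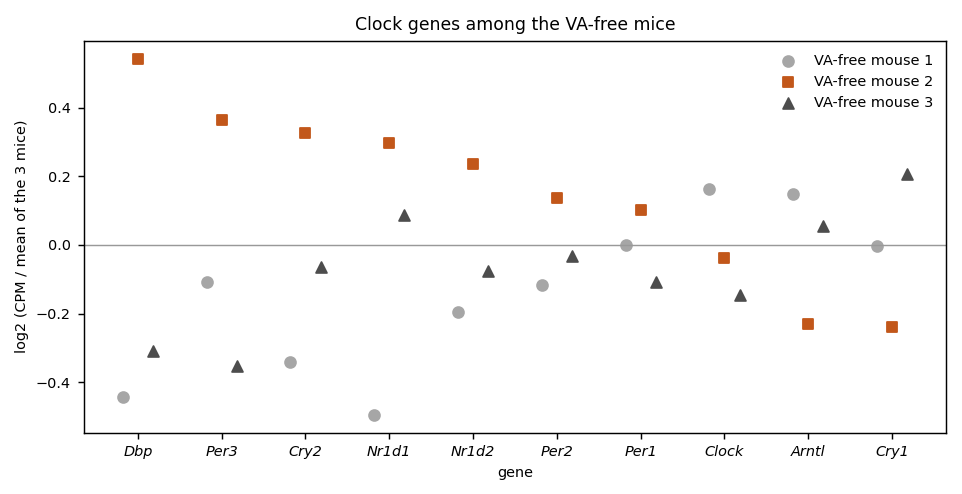
Level of the 10 clock genes in each VA-free mouse as the log2 ratio of its CPM to the mean of the 3 mice, with genes ordered by mouse 2 (squares). Mouse 2 is highest for the 7 genes from Dbp to Per1 and lowest for Arntl and Cry1, and Dbp is 1.89-fold its mean in mice 1 (circles) and 3 (triangles).

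The genes most like Arntl and Dbp over the 5 mice were sought among the 9558 genes that averaged 10 CPM or more, by the root mean square difference of centred log2(CPM + 1). For Arntl these were the actin regulator Inf2 (0.0216), the scaffold gene Dlg1 (0.0389) and Zfyve1 (0.0407). Inf2 was at 45.2, 34.5 and 43.0 CPM in VA-free mice 1 to 3 and 35.4 and 30.7 CPM in CTRL mice 1 and 2, beside 73.2, 56.3, 68.6, 57.4 and 51.5 CPM for Arntl. For Dbp they were Coch (0.106), the glycerol kinase gene Gk (0.129) and the clock repressor Bhlhe40 (0.138). Coch was at 30.0, 56.8 and 29.7 CPM in the VA-free mice and 30.1 and 31.0 CPM in the CTRL mice, beside 27.5, 54.4, 30.1, 31.1 and 35.5 CPM for Dbp, so in both genes VA-free mouse 2 stood out. These are descriptions over 5 mice.

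The transcripts behind the gene totals were described as far as short reads assign them. The shares of the main transcripts of Nr1d1, Cry1 and Cry2 overlapped between the diets. Nr1d1-201 held 97.6 to 99.6% of the summed TPM of Nr1d1 in the VA-free libraries and 96.7 to 100% in the CTRL libraries. Cry1-201 held 75.3 to 93.7% and 85.6 to 95.6%, and Cry2-201 85.0 to 87.4% and 76.6 to 91.7%. For these genes 1 coding transcript made up most of the level on both diets. Per2-201, the coding transcript, rose with its gene, at 16.8 to 21.4 TPM against 1.65 to 5.60 TPM. Its share was 64.9 to 90.1% against 79.5 to 100%, the rest being the processed transcript Per2-202, which rested on 0 to 38.6 counts per library.

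In Clock, the coding transcript Clock-204 held 24.7 to 28.6% of the TPM in the VA-free libraries and 0.315 to 23.1% in the CTRL libraries. Its lowest CTRL value was that of library 2A, at 0.0418 TPM and 9.25 counts, with the other CTRL libraries at 1.32 to 3.86 TPM. Clock-201 held 38.7 to 46.8% and 40.7 to 42.1%. In Nr1d2, the retained-intron transcript Nr1d2-202 held 30.0 to 31.7% against 10.8 to 31.2%, at 28.3 to 42.7 TPM against 2.96 to 15.0 TPM. The lowest share and level were again those of CTRL 2A, and the other CTRL libraries were at 6.76 to 15.0 TPM. The retained-intron transcript Arntl-202, chosen after its values were seen, held 10.1 to 15.7% against 0.978 to 3.40%. The coding transcript Arntl-201 was at 15.8 to 21.9 TPM against 12.6 to 13.4 TPM. Per1-205, annotated as a target of nonsense-mediated decay, held 29.6 to 41.7% against 2.84 to 38.0%, with CTRL 2A at 0.181 TPM and the other CTRL libraries at 8.75 to 17.8 TPM. Per3-201, the coding form, held 33.3 to 67.7% against 0 to 37.2%. No test was run on transcripts.

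Beyond the 10 genes, 24 further clock genes were examined by role. Of these, 9 were higher, 4 lower and 11 not called, with a median log2 fold change of 0.19 beside 0.003 for all genes, and 18.9% and 22.5% of all genes called higher and lower. The count of called genes fell to 5 without CTRL library 2B and to 8 without VA-free mouse 1. Calls over all genes fell too. They were 7459 of 17997 in the main test, 4476 of 17769 without CTRL 2B and 5606 of 17614 without VA-free mouse 1. Npas2, a CLOCK paralog that can stand in as partner of ARNTL, had the largest rise, from 19.1 ± 3.18 CPM (SD, n = 2) to 50.4 ± 6.37 (SD, n = 3), or 1.40 on the log2 scale (SE 0.17, adjusted p = 0.00106). Arntl2, an ARNTL paralog, and Rora, the nuclear receptor that activates Arntl through ROR elements, were called at 0.70 (adjusted p = 0.0433) and 0.48 (adjusted p = 0.0486). Without any 1 of the 5 mice, Arntl2 had an adjusted p-value of 0.0612 to 0.136 and Rora of 0.0544 to 0.122, so both calls needed all mice. Rorb was not called.

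Among the genes listed as clock modifiers was Csnk1d, the casein kinase that phosphorylates PER proteins. Csnk1d rose from 332 ± 28.2 CPM (SD, n = 2) to 754 ± 119 (SD, n = 3), or 1.18 on the log2 scale (SE 0.17, adjusted p = 0.00193). Its paralog Csnk1e had a log2 fold change of 0.11 (SE 0.11, adjusted p = 0.476). Of the F-box genes, Fbxw11, whose product takes part in PER degradation, was higher at 0.69 (adjusted p = 0.00613). Btrc (0.16) and Fbxl21 (-0.26) were not called. Timeless, which also acts at replication forks, fell from 40.6 ± 10.5 to 19.1 ± 3.64 CPM (log2 fold change -1.09, SE 0.22, adjusted p = 0.00813).

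Of the E-box repressors, Bhlhe41 was lower (log2 fold change -0.59, SE 0.13, adjusted p = 0.0121), and Bhlhe40 (0.07, adjusted p = 0.818) and Ciart (-0.92, SE 0.31, adjusted p = 0.0500054) were not called. Among the genes that act on D-boxes, the activator Tef was higher at 0.84 (SE 0.20, adjusted p = 0.0140) and the repressor Nfil3 at 0.59 (SE 0.11, adjusted p = 0.00589), while Hlf (0.74, SE 0.33, adjusted p = 0.119) was not called. Of the output genes, Usp2, a deubiquitinase, rose from 81.6 ± 6.45 to 150 ± 20 CPM (log2 fold change 0.88, SE 0.15, adjusted p = 0.00362). Tsc22d3 (-0.85, adjusted p = 0.0250) and Tspan4 (-0.90, adjusted p = 0.0102) fell, and Wee1, Nampt and Noct (0.03) were not called. Without CTRL library 2B, Fbxw11 had an adjusted p-value of 0.0506, Bhlhe41 of 0.0548, Nfil3 of 0.0613, Tsc22d3 of 0.0613 and Tef of 0.0995. Tef also missed the threshold without CTRL mouse 2 (0.0552), Nfil3 without CTRL library 2A (0.0536) and Bhlhe41 without VA-free mouse 1 (0.0525). Tsc22d3 had 0.0631 to 0.0747 without VA-free mouse 1 or 2 or either CTRL mouse. The calls also depended on the scale. On the log2(TPM + 1) scale the differences of the lower genes were smaller, at -0.07 for Bhlhe41 (adjusted p = 0.767), -0.41 for Tspan4 (adjusted p = 0.0964), -0.45 for Tsc22d3 (adjusted p = 0.129) and -0.52 for Timeless (adjusted p = 0.0729), where the median of all genes was 0.192. With the length trend taken out, Fbxw11 was at 0.24 (adjusted p = 0.187), Rora at 0.26 (adjusted p = 0.256), Tef at 0.33 (adjusted p = 0.256) and Tspan4 at -0.47 (adjusted p = 0.123). Bhlhe41 also missed the threshold with the first library of each mouse (0.077). Npas2, Csnk1d and Usp2 passed in all 25 alternative analyses.

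**Figure D4:**
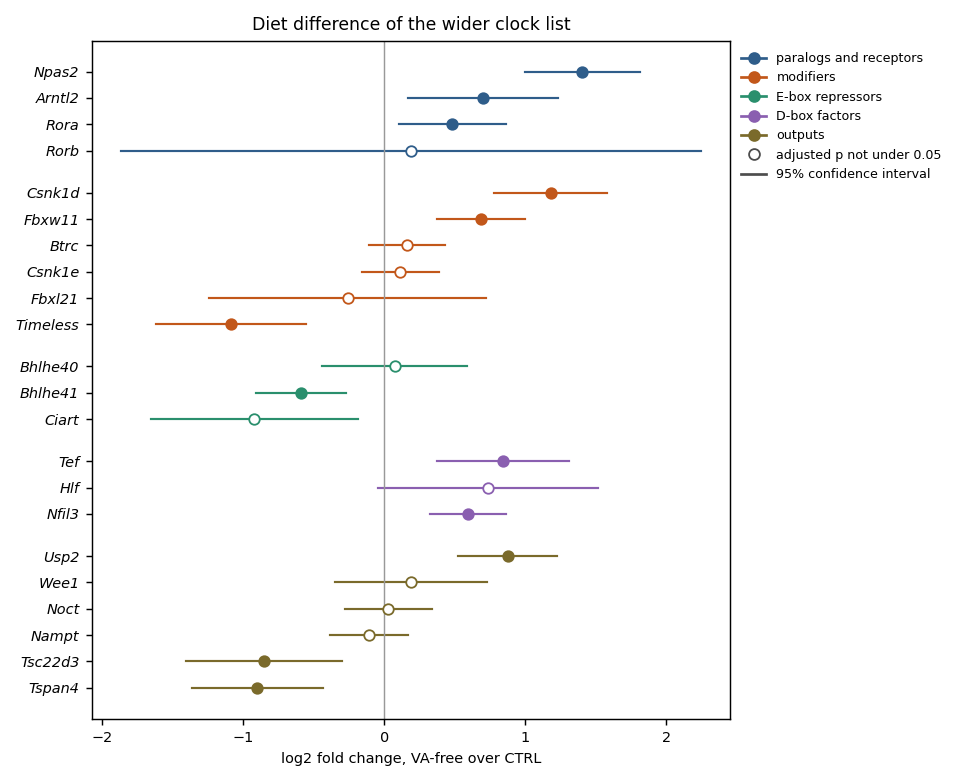
Log2 fold change, VA-free over CTRL, of the further clock genes reported here, grouped by role, with 95% confidence intervals of edgeR's test and filled circles where the adjusted p-value was under 0.05. Npas2 at 1.40 and Csnk1d at 1.18 lie farthest to the right and Timeless at -1.09 farthest to the left.

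Genes that respond to inputs outside the daily cycle were examined as lists of 10 genes each, because Per1 responds to such inputs. The muscle was digested before sorting, so responses in the animal and during digestion cannot be told apart. Of 10 glucocorticoid-inducible genes, Errfi1 was higher (log2 fold change 0.71, adjusted p = 0.0180), Dusp1 lower (-0.80, adjusted p = 0.00396) and 8 not called, among them Mt1 (-0.57, adjusted p = 0.111), with a median of -0.09. Of 10 immediate early genes, Fosb (0.88, adjusted p = 0.00326) and Egr1 (0.68, adjusted p = 0.0313) were higher, Fos (-0.41, adjusted p = 0.0441) and Ier3 (-0.98, adjusted p = 0.0187) lower and 6 not called, with a median of -0.12. Neither list moved in 1 direction, beside 18.9% and 22.5% of all genes called higher and lower. Without CTRL library 2B, Errfi1, Fosb, Egr1, Fos and Ier3 had adjusted p-values of 0.137 to 0.573, and Dusp1 had 0.18 without CTRL 2A. On the log2(TPM + 1) scale Dusp1 was at -0.30 (adjusted p = 0.186) and Ier3 at -0.50 (adjusted p = 0.113), and with the length trend taken out Errfi1 was at 0.38 (adjusted p = 0.163), Egr1 at 0.32 (adjusted p = 0.26) and Ier3 at -0.46 (adjusted p = 0.215). Across the 25 alternatives the call was lost in 7 for Errfi1, 3 for Dusp1, 3 for Fosb, 8 for Egr1, 9 for Ier3 and 10 for Fos, which was at 0.00 in 2 others.

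Marker RNA of several cell types moved with the diet in the same libraries as the clock genes. The MuSC markers had a median log2 fold change of 1.31 and the 9 called were all higher. Of the other lists, 4 of 6 fibro-adipogenic progenitor, 4 of 7 pericyte and smooth muscle, 4 of 8 macrophage, 3 of 8 myofiber, 5 of 6 Schwann cell, 4 of 5 tenocyte and 4 of 5 erythroid markers were lower and none was higher. Beside these counts, 22.5% of all genes were called lower and 18.9% higher, and 5 of the 8 myofiber markers were not called. Pericyte and smooth muscle markers summed to 732 to 951 CPM in VA-free libraries and 2485 to 2939 CPM in CTRL libraries, and the tendon gene Tnmd was at 0.84 ± 0.493 against 114 ± 27.4 CPM. In the same order, the sums were 901 to 1175 and 913 to 2103 CPM for fibro-adipogenic progenitor, 26.3 to 134 and 176 to 872 CPM for macrophage, and 320 to 412 and 419 to 513 CPM for myofiber markers. For Schwann cell, tenocyte and erythroid markers they were 37.2 to 49.4 and 254 to 595 CPM, 38.3 to 62.3 and 592 to 1065 CPM, and 28.8 to 243 and 1302 to 1909 CPM. Pax7, Pecam1, Rgs5 and Tnmd had counts in every library. The called clock genes other than Per2 lay between 0.83 and 1.13. The MuSC markers ran from 0.73 to 1.70, with Pax7 near the low end at 0.76. The part of these markers in the clock gene differences was not tested.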

How the data were processed

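RNA of sorted MuSCs was copied into full-length cDNA (SMART-Seq v4), made into Nextera XT libraries and read in single 75 bp reads. The authors obtained estimated counts per transcript by pseudo-alignment to the GRCm38 transcripts of Ensembl 96, with Kallisto (version 0.46.2 in the submitters' processing notes), and deposited them unnormalized for each library. The deposited TPM are the same estimates divided by effective transcript length and scaled to the same total in every library, so they carry no depth. A method that uses strand is not given in the sources used here.

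Of 118489 transcripts, 116816 matched a gene, and counts without one (0.647% to 0.756% of a library) were left out. Counts were added per gene and per mouse and rounded. The test of VA-free against CTRL mice was that of edgeR (4.0.16, R 4.3.3; TMM, filterByExpr, quasi-likelihood test, Benjamini-Hochberg over 17997 genes, threshold 0.05). Levels are TMM-normalized CPM, and the standard error is the log2 fold change divided by the square root of F. The 25 alternatives covered normalization, filters, DESeq2 1.42.0, limma 3.58.1 (voom and TPM with a pseudocount of 1 or 0.1), length corrections, technical libraries, a replicate block and the removal of single mice and libraries.

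The 10 clock genes, the other lists and the tests were chosen with earlier results of these data known. Named were the 10 genes, list members past the threshold or among the 2 most abundant of a list, the 3 genes nearest to Arntl and to Dbp, and transcripts with at least 10% of a gene's TPM. Some members of the further clock list are counted but not reported here. Deposited values came from 5 animals, so the spread among CTRL rests on 1 difference. The fitting code was checked on simulated counts. Promoter windows came from RefSeq (GRCm38.p6).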

Additional observations from a re-analysis of the deposited data

Results flagged for a closer look

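Of 66 sets of 4 libraries (a gene in the libraries of 1 diet), 4 held a library whose gap to its nearest neighbour was too large a share of the whole range for the 95% limit of Dixon's test. Chance gives about 1 in 20. The test treats libraries of 1 mouse as separate samples, which they are not. Cry2 was at 31.6 CPM in CTRL 2A, where the other CTRL libraries lay at 70.9 to 77.4 CPM. Ier3, an immediate early gene, was at 70.2 CPM in the same library. Dbp was at 54.3 CPM in VA-free 2A, where the other VA-free libraries lay at 26.9 to 29.9 CPM. Bhlhe40, a repressor that binds E-boxes, was at 606 CPM in the same library. The causes were not tested.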

How the results depend on the processing

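Of the 10 clock genes, 6 were called, between 4 and 7 when a mouse or library was left out, and 2 with the length trend removed. Of the 24 further genes, 13 were called, 7 with the first library of each mouse, 8 with the replicate block, and 5 (without CTRL 2B) to 15 (without CTRL 1B) when a mouse or library was left out. Calls over all genes moved as well, from 7459 of 17997 in the main test. They were 5310 of 17997 with the length trend removed, 5113 of 16667 with first libraries and 5242 of 17997 with the block. Without CTRL 2B they were 4476 of 17769, without CTRL 2A 7110 of 17957 and without CTRL 1B 7744 of 17898. Without VA-free mouse 3 they were 5659 of 17605. Replicate numbers are shared by the diets only as numbers (correlations of deviations -0.022 and 0.006), and with the replicate block 6 of the 10 were called. Among the further genes reported here, Arntl2, Rora, Bhlhe41 and Nfil3 lost their call with the block (adjusted p = 0.145, 0.229, 0.0691 and 0.0547). The log2 fold change changed sign for Arntl (-0.01) and Bhlhe40 (-0.23), Per3 (-0.39), Noct (-0.58) and Mt1 (0.11) with the length trend removed. With TPM, Per1 was at 0.18 with either pseudocount and Fos at 0.00. With the first library of each mouse, Per1 was at 0.26, Per3 at -0.09 and Bhlhe40 at -0.03. Per3 was at -0.23 with the transcript length offset, Bhlhe40 at -0.00 with 8 separate libraries and Noct at -0.01 with upper quartile scaling. When a mouse or library was left out, Per1 ranged from -0.69 to 0.17, Per3 from -0.07 to 0.35, Dbp from -0.21 to 0.34, Bhlhe40 from -0.17 to 0.19, Csnk1e from -0.01 to 0.17 and Noct from -0.10 to 0.17. The causes were not tested. Over the 25 alternatives Per2 and Nr1d2 lost no call, Clock 1, Nr1d1 3, Cry2 4 and Cry1 6, and no direction of these 6 genes changed. Arntl was called higher in 2 (both TPM) and Per1 lower in 2. TPM moved the median of all genes to 0.192 (pseudocount 1) and 0.354 (pseudocount 0.1) and the calls to 5799 higher and 2637 lower with the first. VA-free mice 1 and 2 had 1 library each, so leaving out the library is leaving out the mouse. With 2 CTRL mice, leaving out 1 leaves a lone mouse that was assumed to vary like the VA-free mice.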
